A study of Rattus norvegicus with 112 samples.

Results

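Primary rat cortical neurons were exposed to NMDA for 1 h, taken at the end of the exposure, and set against control cultures of the same dates. The comparison took 6 of the 112 arrays of the series, chosen from the sample labels: 3 arrays of cultures held in 1 mM NMDA for 60 min and 3 arrays of control cultures. Each group had 1 array from each of 3 label dates, called culture dates 1, 2 and 3 here, and the arrays were paired by date. The controls received neither NMDA nor nicotine per their labels. The same run held 6 more arrays of the same dates, 3 of cultures given 10 uM nicotine for 18 h and NMDA for 60 min and 3 given nicotine alone, which entered the same fit. A separate experiment, called the continuous experiment here, left 1 mM NMDA on the cells for 60 min. It supplied another 3 treated and 3 control arrays. Its arrays at shorter and longer NMDA times entered the joint fit of both experiments, 30 arrays in all. The labels do not name the rat strain, the age of the animals or cultures, or how many animals were pooled for a culture date. Since nothing else says that the dates were separate preparations, the p-values measure only the spread between these arrays.

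NMDA receptors are glutamate-gated ion channels that let calcium into a neuron when glutamate, or the agonist NMDA, binds and the membrane is depolarized. Calcium then activates kinases that phosphorylate transcription factors already present in the nucleus, among them CREB, which binds the cAMP response element, and serum response factor, which binds the CArG box. The genes that these factors switch on first, without new protein synthesis, are the immediate early genes, and many of them encode transcription factors themselves. Long exposure of cortical neurons to NMDA is also a standard model of excitotoxic injury.

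The array held 1322 probe sets, and 59 of them served as its own controls. For the other 1263, the probe annotation gave 1 gene for 1137, several genes for 8 and none for 118, which covered 720 genes. Values are array intensities on a linear scale, scaled by the authors to a trimmed mean between 2510 and 2512 on each of the 12 arrays of the run, and the number of arrays limits their precision. The control array of date 2, and less so its NMDA array, stood apart. For GAPDH, the 3' probe set over the 5' one, which is higher where RNA is degraded, gave a ratio of 1.28, 2.18 and 1.56 in NMDA cultures at dates 1, 2 and 3, against 1.58, 3.36 and 1.27 in control cultures. The same ratio for actin was 0.863, 1.67 and 1.01 in NMDA cultures and 0.923, 4.60 and 0.919 in control cultures. The date 2 control array had a median correlation of 0.894 with the other arrays of the run, the date 2 NMDA array 0.923, and the remaining arrays 0.948 to 0.957. The date 2 arrays with nicotine did not stand apart, with GAPDH ratios of 1.47 with NMDA and 1.42 without, and actin ratios of 0.952 and 0.850. Calls that changed without date 2 are given beside the result. Of the 14 neuron marker genes on the array, 13 were above the intensity limit of the test, as were 541 of all 720 named genes. Markers of other cell types were above that limit too. These were, of the markers on the array, 6 of 6 for astrocytes (11 listed), 5 of 6 for oligodendrocytes (13 listed) and 2 of 2 for endothelial and meningeal cells (16 listed). Most named genes were above this limit, so these counts alone do not show that a cell type was present. The only microglial marker of 14 listed that the array held, Itgam, was below that limit, and Gfap, the defining astrocyte marker, was not among the array's named genes.

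After 1 h of NMDA, transcription factor genes of the immediate early class were higher, and no probe set was lower past the threshold. Fos, Nr4a1, Junb, Egr1 and Nr4a3 rose, by between 1.17 and 2.99 on the log2 scale, or between 2.25-fold and 7.97-fold. By limma with culture date as a block, 11 of 884 tested probe sets passed a Benjamini-Hochberg adjusted p of 0.05, or 1.24% of those tested. They stood for these 5 genes and 1 probe set with no gene name. On all 11, the 3 NMDA arrays lay above the 3 control arrays, which held for 44 probe sets or 4.98% of those tested, and all 11 were higher with NMDA in 3 of 3 date pairs, as were 153 or 17.3%. The count that passed lower was 0. At an unadjusted p under 0.05 limma gave 81 probe sets (9.16%), 30 lower (3.39%) and 51 higher (5.77%). A gap separated the probe sets that passed from the rest: the largest adjusted p that passed was 0.00436 and the smallest that did not was 0.263. The median log2 difference over all 884 probe sets was 0.01. Without date 2, 13 passed, among them all 11. In RNA from whole cultures, a change in the number of cells of a type and a change in RNA per cell cannot be told apart.

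**Figure D1:**
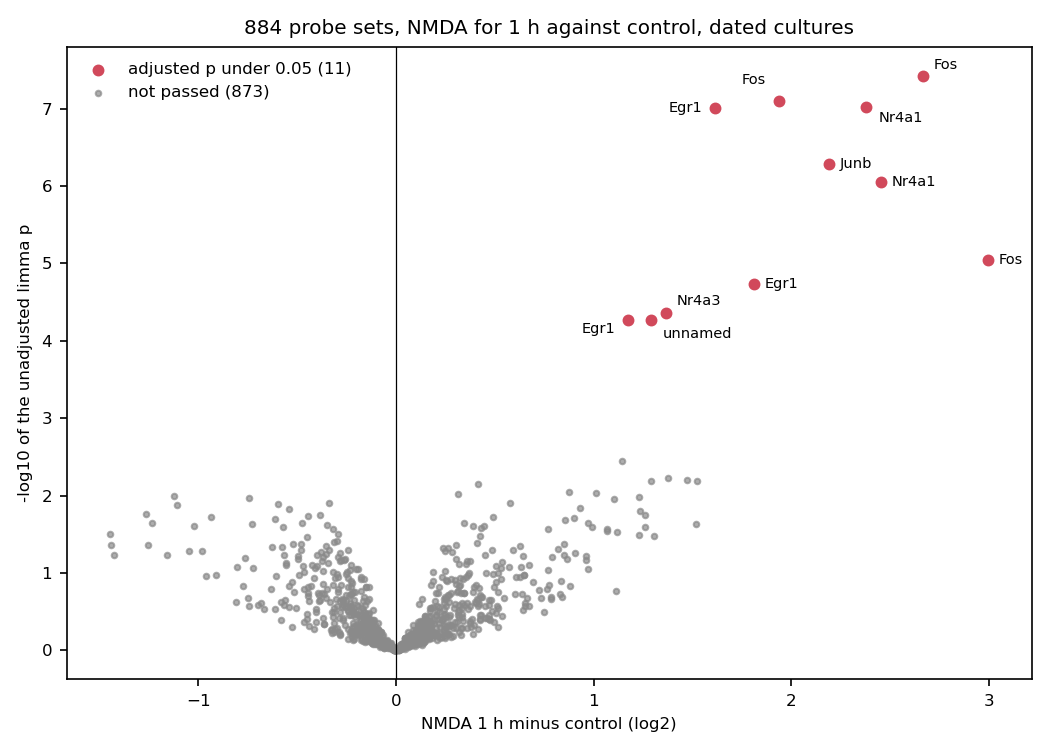
The log2 difference of NMDA for 1 h minus control (x axis) against -log10 of the unadjusted limma p (y axis) for 884 probe sets, 1 point each, with the 11 past the adjusted threshold in red and named. All 11 lie to the right of 0 and stand clear of the other 873.

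Promoters of 3 of the 5 genes were in the RefSeq promoter table, and they are shown because immediate early genes are textbook targets of CREB and serum response factor. Each runs from 250 bases before the annotated start to 50 after it in the GRCr8 assembly, 5′ to 3′ on the strand of the gene, which is the plus strand for all 3. Capitals mark the short cAMP response element CGTCA, read on either strand (TGACG on the other), and the CArG box. The Nr4a1 promoter lies at chr7:134259888-134260187, the Egr1 promoter at chr18:26736828-26737127 and the Junb promoter at chr19:40080876-40081175.
Nr4a1: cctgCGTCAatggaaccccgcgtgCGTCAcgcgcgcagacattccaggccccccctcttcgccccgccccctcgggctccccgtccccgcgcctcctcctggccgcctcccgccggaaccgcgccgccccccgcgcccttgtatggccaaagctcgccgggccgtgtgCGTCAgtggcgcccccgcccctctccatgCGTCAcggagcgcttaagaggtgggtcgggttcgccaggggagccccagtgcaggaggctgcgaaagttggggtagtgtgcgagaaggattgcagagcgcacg
Egr1: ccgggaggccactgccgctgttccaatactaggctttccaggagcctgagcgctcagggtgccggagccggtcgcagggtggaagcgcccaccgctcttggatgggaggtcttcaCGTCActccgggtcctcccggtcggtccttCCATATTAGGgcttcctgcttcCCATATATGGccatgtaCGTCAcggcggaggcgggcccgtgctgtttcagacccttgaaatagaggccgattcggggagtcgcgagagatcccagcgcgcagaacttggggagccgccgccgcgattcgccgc
Junb: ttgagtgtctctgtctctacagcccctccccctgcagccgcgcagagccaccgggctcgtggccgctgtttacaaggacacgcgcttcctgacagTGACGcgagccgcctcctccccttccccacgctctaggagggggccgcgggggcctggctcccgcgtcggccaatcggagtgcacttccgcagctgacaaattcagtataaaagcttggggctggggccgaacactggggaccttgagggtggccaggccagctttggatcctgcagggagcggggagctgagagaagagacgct
The Nr4a1 window held 4 short cAMP response elements, whose first bases lie at -246, -226, -82 and -53 from the start. The Egr1 window held 2, at -135 and -66, and 2 CArG boxes, at -105 and -83. The Junb window held 1, at -155, and a TATAAA motif at -49. Among 33469 rat promoter windows of the same length, 21.2% held at least 1 short cAMP response element, 0.236% held 4 or more, and 1.64% held a CArG box. The cutoff of 4 equals the count in the Nr4a1 window, so the 0.236% is no independent measure of how unusual that window is. The same search on both strands found the Egr motif GCGNGGGCG at 1 place in the Nr4a1 window, overlapping no capital, against 4.98% of all windows. The TATAAA motif was in 14.2% of all windows. None of the 3 windows held the full cAMP response element TGACGTCA (1.83% of all windows), the AP-1 motif TGANTCA (7.33%) or the NR4A motif AAAGGTCA (1.43%). These matches are letters in a window and do not show that a factor was bound.

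Fos encodes a subunit of the AP-1 transcription factor, which pairs with a Jun protein to bind DNA, and it was read by 3 probe sets. On X03347cds_g_at its intensity was 7061, 6490 and 8757 in NMDA cultures at dates 1, 2 and 3, against 1126, 1190 and 1029 in control cultures. The groups were far apart, with means of 7436 ± 1179 in NMDA cultures and 1115 ± 81.3 in control cultures (SD, n = 3 each). The log2 difference was 2.67 (SE 0.19, adjusted p = 2.18e-05 by limma), and the 3 date pairs gave 2.59, 2.39 and 3.02. On the brighter X06769cds_g_at Fos stood at 13405, 13799 and 13280 in NMDA cultures, against 2956, 4112 and 3473 in control cultures. The NMDA arrays there differed from each other by less than the control arrays did, and the log2 difference was 1.94 (SE 0.15, adjusted p = 2.18e-05 by limma). On the dimmest, X06769cds_at, the values were 3585, 3402 and 2971 in NMDA cultures and 512, 469 and 194 in control cultures. Its log2 difference of 2.99 (SE 0.38, adjusted p = 0.00114 by limma) was the largest of the 11, and the control array of date 3 was the lowest of its group.

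Nr4a1 and Nr4a3 encode orphan nuclear receptors, transcription factors that act without a known hormone ligand. Nr4a1 on U17254_at measured 5518, 5100 and 4866 in NMDA cultures and 920, 776 and 1181 in control cultures. No NMDA array came near a control array, and the log2 difference was 2.38 (SE 0.19, adjusted p = 2.18e-05 by limma). Its second probe set, U17254_g_at, gave 9099, 11959 and 7908 in NMDA cultures against 1319, 1566 and 2331 in control cultures, a log2 difference of 2.45 (SE 0.24, adjusted p = 0.000131). Both probe sets had their smallest pair difference at date 3, 1.99 and 1.74, where the control was highest. Nr4a3 on X86003_at measured 2136, 3469 and 1667 in NMDA cultures against 732, 1272 and 684 in control cultures. Its groups did not overlap, and date 2 was the highest array of both groups. The log2 difference was 1.37 (SE 0.21, adjusted p = 0.00428 by limma), with date pairs at 1.47, 1.41 and 1.22. The probe sets of Nr4a3 disagreed: rc_AI176710_at, the brightest, was at -0.07 (95% interval -0.41 to 0.27, adjusted p = 0.926), and rc_AI145834_at was below the intensity limit. The Nr4a3 call depended on the date block, since the adjusted p was 0.0814 without it, and on dates 1 and 3, since it was 0.0897 without date 1 and 0.166 without date 3; without date 2 it passed (adjusted p = 0.00697).

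Egr1 encodes a zinc finger transcription factor, and 3 of its 4 probe sets rose. On M18416_at it measured 7476, 10744 and 11036 in NMDA cultures and 2289, 3760 and 3445 in control cultures. Date 1 was lowest in both groups, and the date pairs of 1.68, 1.50 and 1.66 lay close together. The log2 difference was 1.62 (SE 0.13, adjusted p = 2.18e-05 by limma), the smallest SE among the 11. On rc_AI176662_s_at the values were 2080, 2401 and 3976 in NMDA cultures and 415, 1100 and 840 in control cultures, with a log2 difference of 1.81 (SE 0.25, adjusted p = 0.00202). On AF023087_s_at, the brightest, they were 29613, 43482 and 36118 in NMDA cultures against 13923, 25761 and 11234 in control cultures, and the log2 difference was 1.17 (SE 0.18, adjusted p = 0.00436). Date 2 had the highest control value on both of these and the smallest pair difference, 1.09 and 0.75. The fourth probe set, U75398_s_at, had overlapping groups and was at 0.22 (95% interval -0.25 to 0.69, adjusted p = 0.797). The AF023087_s_at call was lost without the date block (adjusted p = 0.0930). Both it and rc_AI176662_s_at were lost without date 1 (adjusted p = 0.0897 and 0.114) or date 3 (adjusted p = 0.182 and 0.134).

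Junb encodes a Jun family partner of Fos. Its single probe set, X54686cds_at, measured 5446, 4155 and 4560 in NMDA cultures and 1250, 778 and 973 in control cultures. Date 1 was highest and date 2 lowest in both groups, so that the date pairs, 2.07, 2.33 and 2.16, spread little. The log2 difference was 2.19 (SE 0.21, adjusted p = 9.09e-05 by limma). The probe set with no gene name, U75397UTR#1_s_at, measured 4159, 6082 and 5134 in NMDA cultures and 1585, 3230 and 1649 in control cultures. Its groups did not overlap, and its log2 difference was 1.29 (SE 0.20, adjusted p = 0.00436), which was lost without the date block (adjusted p = 0.155), without date 1 (0.0897) or without date 3 (0.182).

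**Figure D2:**
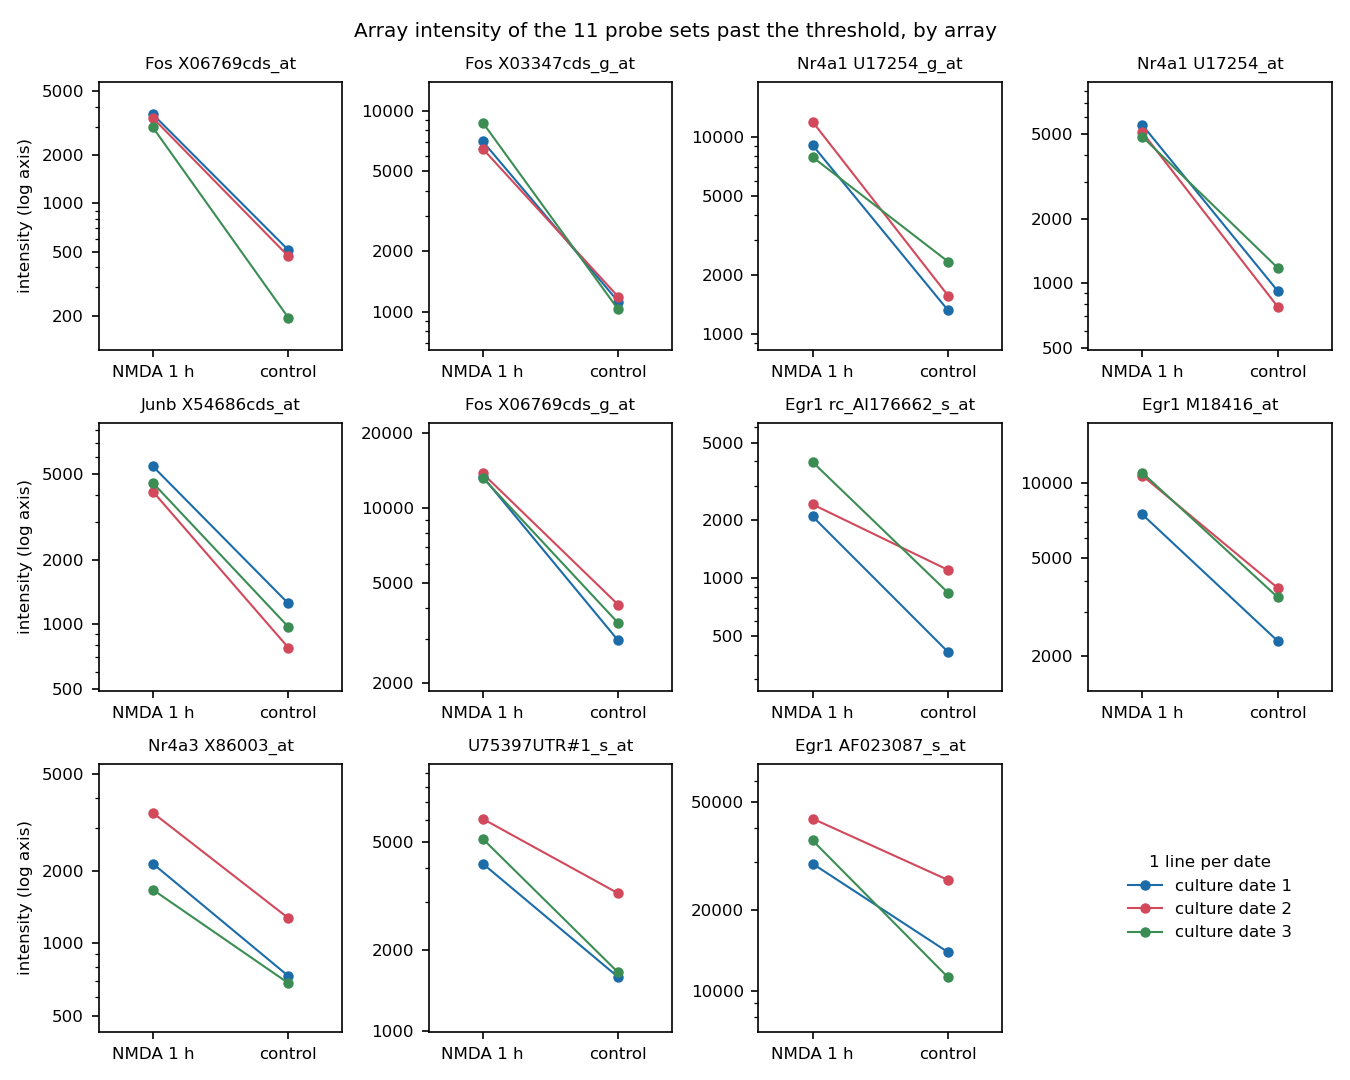
Array intensity (y axes, log scale) of the 11 probe sets past the threshold in NMDA cultures (left of each panel) and control cultures (right), with 1 line per culture date joining the arrays of that date. Every line runs downward to the control, and on each panel the lowest NMDA array lies above the highest control array.

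The other members of the immediate early class gave values that did not pass. Of 23 transcription factors listed, 10 were on the array and 9 could be tested; at the brightest probe set of each gene 4 rose and 0 fell, and Nr4a3 rose at a dimmer one. The list's median was 1.17, beside -0.01 over the 541 genes tested in the same way, of which 4 or 0.739% rose. The list was drawn up with earlier results of these arrays known, so its count is no independent evidence of direction. Fosl2, another Fos family member, measured 2307, 802 and 1592 in NMDA cultures against 496, 521 and 911 in control cultures. The date 2 NMDA array lay among the controls, and the log2 difference of 1.15 (95% interval 0.47 to 1.83) had an adjusted p of 0.263 by limma, or 0.0453 without that array. Jun measured 1791, 613 and 2189 in NMDA cultures against 1118, 111 and 604 in control cultures, where the groups overlapped. Its log2 difference was 1.47 (95% interval 0.51 to 2.43, adjusted p = 0.362), with pairs at 0.65, 2.00 and 1.76. The largest pair, at date 2, used the 111 of the control array with the highest GAPDH and actin ratios. Jund was at 0.78 (adjusted p = 0.649) and was higher with NMDA in 3 of 3 pairs, as were 84 of all 541 genes (15.5%). Crem, which encodes activators and repressors at the cAMP response element, was at 0.38 (95% interval -0.83 to 1.59) and was higher at date 1 alone, and its second probe set was below the intensity limit. Fosl1 was below the intensity limit. Fosb, Arc and Homer1 were not among the array's named genes.

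Those genes for secreted and synaptic products of neuronal activity that could be tested had not changed past the threshold at this time. Of 31 such genes listed, only 7 were on the array. All 7 were tested, 0 rose and 0 fell, and their median was -0.04, or 0.15 without date 2. Bdnf, which encodes a neurotrophin, ranged between -0.41 and 0.66 over 6 tested probe sets, the first of these on its brightest, S76799_at. That probe set measured 960, 636 and 432 in NMDA cultures and 834, 952 and 846 in control cultures. These groups overlapped through date 1, and the 95% interval of -0.95 to 0.12 reached 0. Vgf, a neuropeptide precursor, was at 0.23 (adjusted p = 0.605), and Nptx2, a pentraxin secreted at synapses, was at -0.14 (adjusted p = 0.908). Ptgs2, which encodes cyclooxygenase-2, was at -0.19 (adjusted p = 0.908).

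Among the receptors that NMDA itself acts on, no subunit passed. Of 7 genes tested, 0 rose and 0 fell, with a median of 0.04, or -0.05 without date 2. Grin2a, which encodes the GluN2A subunit, measured 522, 515 and 674 on AF001423_at in NMDA cultures against 892, 1269 and 1279 in control cultures. All NMDA arrays lay below all control arrays, as for 4.3% of the 884 probe sets. The log2 difference was -0.93 (95% interval -1.68 to -0.19), with an adjusted p of 0.422, and the second Grin2a probe set was below the intensity limit. Grina, named as an NMDA receptor-associated protein, was at 0.45 (adjusted p = 0.422) and 0.27 (adjusted p = 0.518). On both of its probe sets the NMDA arrays were above all controls, as for 4.98% of the 884 probe sets. Grin1, which encodes the obligatory GluN1 subunit, gave -0.17 and 0.91 on its tested probe sets, with both intervals reaching 0. Grin2b, which encodes GluN2B, was at -0.06 (95% interval -0.44 to 0.32). Grin2c, Grin2d and Grin3a lay between -0.02 and 0.60 over 7 probe sets. Of 9 AMPA and kainate receptor genes tested 0 passed, their median was -0.30, and Gria3 was lowest at -1.44 (adjusted p = 0.518).

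No other gene list held a gene past the threshold. Of 21 synaptic vesicle and release genes tested, 8 were higher in 3 of 3 pairs and 2 lower, and their median was 0.24. Syn1, which encodes the vesicle protein synapsin I, was the member with the smallest p, at 0.49 (adjusted p = 0.422). Of 19 postsynaptic and calcium signalling genes, 9 were lower in 3 of 3 pairs and 3 higher, beside 90 lower (16.6%) and 84 higher (15.5%) of all 541 genes, and their median was -0.14. Those lower in every pair included Calm3, a calmodulin gene, at -0.38 (adjusted p = 0.422), and Prkcb, a protein kinase C gene, at -0.29 (adjusted p = 0.454). Dlg4, which encodes the scaffold protein PSD-95, was at 0.43 (adjusted p = 0.462). Its NMDA arrays were above all controls, as for 4.98% of the 884 probe sets. Of 16 cell death genes 0 passed (median 0.03, or -0.01 without date 2), with Bcl2l1, which encodes the survival protein Bcl-xL, at 0.90 (adjusted p = 0.422). Of 11 stress response genes 0 passed (median -0.10, or 0.01 without date 2). Hspa1a, a heat shock protein gene, passed on Z75029_s_at without date 2, at 1.30 (adjusted p = 0.0354), and was at 0.40 on its brightest probe set with all dates.

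Marker genes of other cell types did not pass either. The summed intensity of the 6 astrocyte markers on the array ranged from 36409 to 39741 in NMDA cultures and from 38088 to 49945 in control cultures, and their median log2 difference was -0.15. The 14 neuron markers summed to between 224189 and 240324 in NMDA cultures and between 226538 and 283838 in control cultures, with a median of 0.02. The highest sum was that of the date 2 control array, and the other controls, at 228755 and 226538, lay within the NMDA range. Among the neuron markers Map2, a dendritic microtubule protein gene, measured 11120, 15025 and 12756 in NMDA cultures against 16761, 20897 and 15302 in control cultures. Its NMDA arrays lay below all controls, as for 4.3% of the 884 probe sets, and its log2 difference was -0.44 (adjusted p = 0.422). The 6 oligodendrocyte markers summed to between 9883 and 14020 in NMDA cultures and between 7701 and 14558 in control cultures, and the median over the 5 tested was 0.09. Mbp, which encodes myelin basic protein, was the highest of these at 0.77 (adjusted p = 0.424). Its NMDA arrays were above all controls, as for 4.98% of the 884 probe sets. Mag, Cnp and Pdgfra, the lowest, lay between -0.08 and 0.09, and the remaining tested marker lay between them and Mbp. The part of cell composition in any of these values was not tested.

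**Figure D3:**
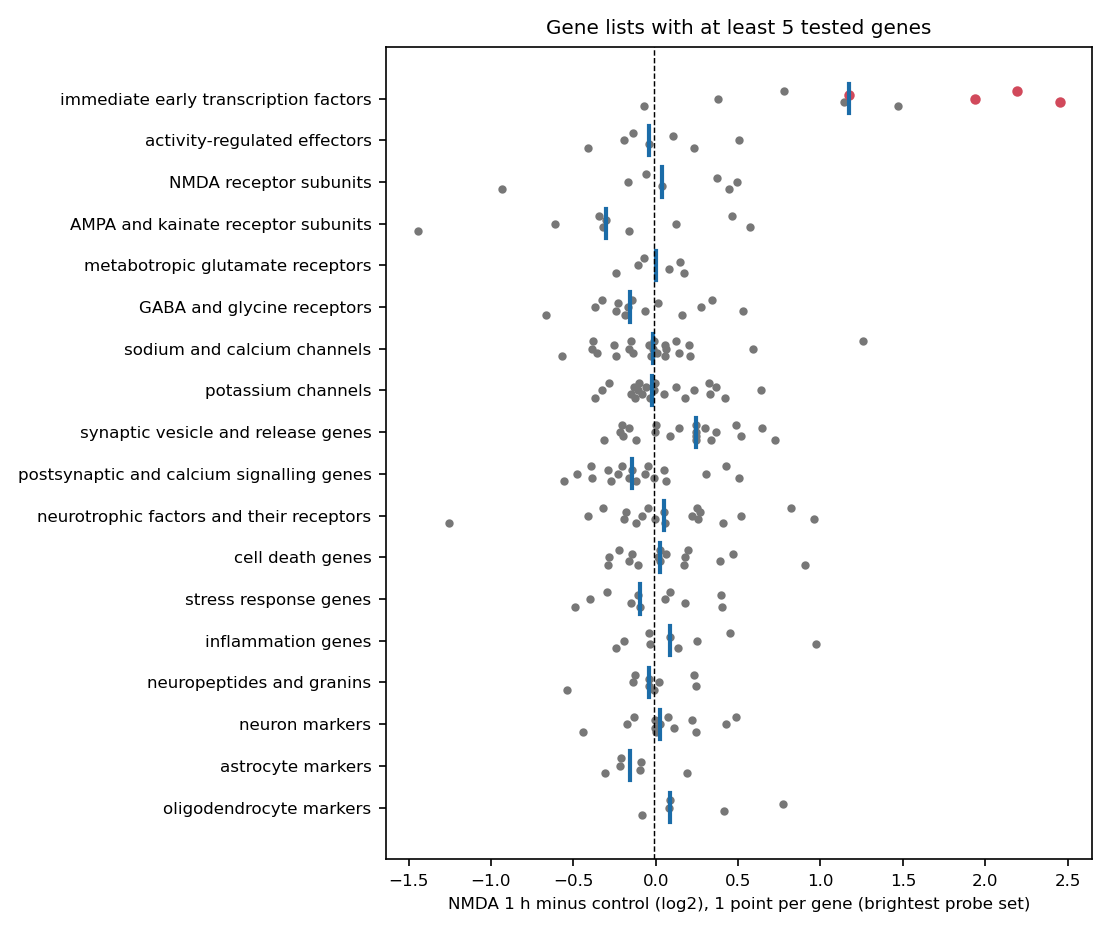
Log2 difference of NMDA for 1 h minus control (x axis) for the genes of each list with at least 5 tested genes, 1 point per gene at its brightest probe set, red where the adjusted p was under 0.05. Blue bars are list medians and the dashed line is the median of all 541 genes. The 4 red points all belong to the immediate early transcription factors.

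The 20 named probe sets with the smallest p that did not pass, some of them list members given above, had an adjusted p between 0.263 and 0.422. Of the higher ones, Fgf2, a growth factor gene, measured 373, 377 and 376 on X07285cds_s_at in NMDA cultures and 223, 109 and 61.7 in control cultures. The NMDA arrays there lay above all controls, as for 4.98% of the 884 probe sets, at a log2 difference of 1.29. The brightest Fgf2 probe set, M22427_at, was at -0.19. Or1f45, an olfactory receptor gene, was at 1.38, Camk2d at 1.10 on J05072_at and -0.07 on its brightest, and Insr, the insulin receptor gene, at 0.88. Of the lower ones, Chrna3, a nicotinic receptor subunit gene, measured 232, 258 and 125 in NMDA cultures and 435, 372 and 751 in control cultures. Its NMDA arrays lay below all controls, as for 4.3% of the 884 probe sets, and its log2 difference was -1.12. Kcnab1, a potassium channel subunit gene, was at -1.10, Avp, the vasopressin gene, at -1.26, and Cck, the cholecystokinin gene, at -0.54. Of the 10 higher values 5 were also above 0 in the continuous experiment, and of the 10 lower ones 7 were also below 0. Among all probe sets tested in both, 51.7% of the higher and 57.9% of the lower kept their sign there. Within nicotine-treated cultures the 10 higher ones lay between -0.10 and 0.70, with 5 above 0, and the 10 lower ones between -0.93 and 0.04, with 9 below 0. Among all probe sets 54.8% of the higher and 54.7% of the lower kept their sign there.

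The cultures given nicotine for 18 h before NMDA show the same exposure on other arrays of the same dates. There 11 of 884 probe sets rose (1.24%) and 0 fell. Fos on X03347cds_g_at measured 6073, 7955 and 8551 with nicotine and NMDA against 1247, 1059 and 929 with nicotine alone, a log2 difference of 2.73 (95% interval 2.31 to 3.16). Nr4a1 on U17254_at measured 5384, 5962 and 4438 against 1306, 1310 and 1464, a log2 difference of 1.90 (1.48 to 2.32). The NMDA arrays lay above the others in both cases. Junb was at 2.37, Egr1 on M18416_at at 1.45 and Nr4a3 on X86003_at at 1.66, each past the threshold, and so was U75397UTR#1_s_at at 1.48. The test of the difference between the effects with and without nicotine passed by limma at 0 of 884 probe sets, where 34 had an unadjusted p under 0.05 (3.85%). For Fos on X03347cds_g_at the effect with nicotine minus that without was 0.07 (95% interval -0.53 to 0.67), for Nr4a1 on U17254_at -0.48 (-1.07 to 0.11), for Egr1 on M18416_at -0.16 (-0.56 to 0.24) and for Junb 0.18 (-0.46 to 0.82). These intervals leave room for differences of about the size of their bounds. Jun, at 1.47 without nicotine, was at 0.38 (adjusted p = 0.965) with it, and Grin2a, at -0.93 without, was at -0.15 (adjusted p = 0.968). The effect with nicotine minus that without was -1.09 (95% interval -2.45 to 0.26) for Jun and 0.78 (-0.27 to 1.84) for Grin2a. Both intervals reached 0.

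The continuous experiment shared no array with the dated cultures, and its labels number the replicates without giving dates. The joint fit of both experiments was filtered on its own 30 arrays, so its 884 probe sets are not all those of the dated run. It held 433 of the 454 probe sets that were higher in the dated run and 420 of the 430 lower ones. In this fit, 9 of its 884 probe sets rose after 60 min in the continuous experiment (1.02%) and 0 fell, while 23 had an unadjusted p under 0.05 (2.6%). All 11 probe sets of the dated cultures were above 0 there, with NMDA arrays above all control arrays, and 9 of them passed. Junb (2.52, adjusted p = 0.139) and Nr4a3 on X86003_at (1.82, adjusted p = 0.270) did not. For Junb the arrays read 5676, 2547 and 4708 in NMDA cultures against 680, 819 and 499 in control cultures, a wider spread than in the dated NMDA arrays. For Nr4a3 they read 3669, 2873 and 9328 against 1236, 1308 and 1220, where replicate 4 of the NMDA group was far above the others. Without that array 5 probe sets passed, against 9 with it. The joint fit drew its spread also from the other NMDA times of the continuous experiment. With only the 4 compared groups in the fit 11 probe sets passed, an alternative chosen after seeing the data.

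The size of the response was compared between the experiments by a test of the difference. By limma it passed at 0 of the 884 probe sets of the joint fit, and 15 had an unadjusted p under 0.05 (1.7%). Effects in this paragraph come from the joint fit, so those of the dated cultures differ slightly from the values above. Fos on X03347cds_g_at was at 2.65 in the dated cultures and 2.70 in the continuous experiment, and the dated minus continuous difference was -0.05 (95% interval -1.84 to 1.74). Egr1 on M18416_at was at 1.61 in the dated cultures and 2.76 in the continuous experiment, a difference of -1.15 (-2.41 to 0.12, adjusted p = 0.994). On this probe set the control arrays read 2289, 3760 and 3445 in the dated cultures and 1663, 2478 and 1214 in the continuous experiment. U75397UTR#1_s_at was at 1.28 in the dated cultures and 2.38 in the continuous experiment, a difference of -1.09 (-2.13 to -0.06, adjusted p = 0.994). Grin2a, which did not pass in either, was at -0.92 in the dated cultures and -0.93 in the continuous experiment. Jun was at 1.43 in the dated cultures and 1.66 in the continuous experiment, where it did not pass (adjusted p = 0.864).

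**Figure D4:**
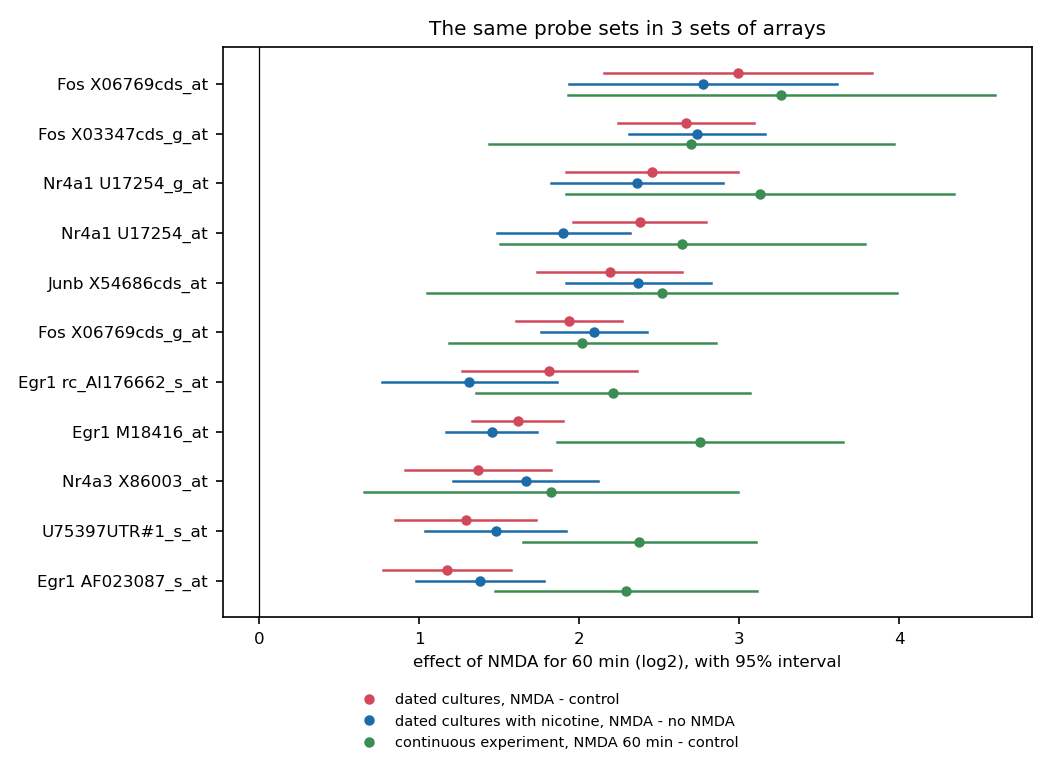
Log2 effect of 60 min of NMDA with its 95% interval (x axis) for the 11 probe sets (rows), in dated cultures against control (red), in dated cultures with nicotine against nicotine alone (blue) and in the continuous experiment against its control (green, from the joint fit). All estimates lie above 0. The intervals of the continuous experiment are the widest, but only these come from the joint fit. Their width therefore cannot be compared with that of the dated intervals. For Fos on X03347cds_g_at the SE in the joint fit was 0.61 for the dated effect and 0.61 for the continuous effect. In the fit of the dated run alone, the SE of the dated effect was 0.19.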

How the data were processed

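Gene expression was measured on Affymetrix arrays in cultures of rat cortical neurons. The deposited table holds intensity values on a linear scale, scaled by the authors to a common trimmed mean (2% left out at each end), as tested on the values; the sources used here do not name the software. Values were turned into log2 after adding the 10th percentile of the run's positive values (57.1, or 72.3 for both runs together), and probe sets with a mean below the 30th percentile (259) were left out, so that 884 remained. The joint fit of both runs set this limit from its own 30 arrays and also kept 884, not all of them the same. Log2 differences understate the change of dim probe sets.

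A linear model of the 4 groups was run in limma 3.58.1 (R 4.3.3) on the 12 arrays of the run, with an intensity trend, label date as a block (6 residual degrees of freedom) and 2-sided p-values adjusted by Benjamini-Hochberg over all tested probe sets. An exact permutation test of 3 arrays against 3 that ignored the pairing could not go below 0.1. One that kept the pairing by date would have fewer arrangements and so a higher limit. The dates come from the labels. In the check of the pairing, deviations from the group means correlated at 0.333, 0.534 and 0.391 between same-date NMDA and control arrays. Different dates gave -0.43 to 0.15, and taking deviations from a mean of 3 arrays lowers these by construction. The largest same-date value, 0.534, was at date 2, whose NMDA and control arrays both had raised GAPDH and actin ratios. The part of RNA quality in it was not tested. Without the replicate block 8 probe sets passed. Effects in the continuous experiment, and the dated effects compared with them, came from a joint fit of 30 arrays. That fit included the other NMDA times of the continuous experiment. All other dated effects came from the 12 arrays. No pair of arrays was identical. The fit was tested on simulated data.

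The members, the 21 gene lists and the tests were chosen with earlier results of these data known. Named were all probe sets past the threshold, all probe sets of Fos, Fosb, Jun, Junb, Egr1, Nr4a1, Nr4a3, Crem, Arc, Homer1, Bdnf and the NMDA receptor subunits, and the 10 named rises and 10 named falls with the smallest p among those not passing. List members named beyond this rule (Jund, Vgf, Nptx2, Ptgs2, Gria3, Syn1, Prkcb, Dlg4, Bcl2l1, Hspa1a and Mbp) were chosen after their values were seen. A gene stands in a list by its brightest probe set. Gene names come from the platform annotation, and the RefSeq table lacked 5 of its Entrez IDs. Alternatives varied the block, the arrays fitted, the offset, the filter, the normalization, the variance trend and single arrays or dates.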

Additional observations from a re-analysis of the deposited data

How the results depend on the processing

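In the dated cultures 11 probe sets passed in the NMDA contrast, and between 11 and 13 passed, always with these 11 among them, under either other offset, without the filter or with a filter at the median, under median centring, quantile normalization or no intensity trend, with the 6 arrays alone and the block, and without any single array. Without the replicate block 8 passed, and 7 with only the 6 arrays and no block. Leaving out a whole date gave 7 to 13, with 7 without date 1, 13 without date 2 and 7 without date 3, and the cause was not tested beyond the smaller number of arrays. Over 19 alternatives each, Fos (3 probe sets), Nr4a1 (both), Junb and Egr1 on M18416_at passed in all 19, Egr1 on rc_AI176662_s_at in 16, and Egr1 on AF023087_s_at, Nr4a3 and U75397UTR#1_s_at in 15; no effect changed sign. Within nicotine the count was 8 to 11, and the interaction and the dated minus continuous difference passed at 0 under every alternative run. In the continuous experiment it was 9, between 5 and 10 without single arrays (5 without replicate 4 of its NMDA group), 10 with the replicate block in both runs and 11 when only the 4 groups entered the fit, an alternative chosen after seeing the data. Of 757 recomputed values of probe sets that did not pass, 30 changed sign, the largest of them at 0.66 in size, and 1 passed (Fosl2 without the date 2 NMDA array). With 3 arrays a group the 95% interval reached a median of 0.57 to either side on the log2 scale. That interval was not adjusted for the number of tests. Smaller changes were not detectable for most probe sets, and larger ones could also miss the adjusted threshold. Jun, for example, did not pass at 1.47 (adjusted p = 0.362 by limma).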

Other observations

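Some probe sets with no gene name, or outside the rule for named genes, passed in single alternatives. Without date 2, Z27118cds_s_at passed at 1.71 (adjusted p = 0.0215 by limma). With no filter AF030086UTR#1_at passed at 1.76 (adjusted p = 0.00920), and without the date 3 control array AF030088UTR#1_at passed at 2.36 (adjusted p = 0.0294). With only the 6 arrays and the date block M28648_s_at passed at 1.52 (adjusted p = 0.00261).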
